A study of Mus musculus with 4 samples.

Results

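Rab proteins are small GTPases that direct membrane vesicles to their targets. Each cycles between a GDP-bound form, held in the cytosol by a chaperone called GDI, and a GTP-bound form on a particular membrane, where it recruits effectors such as tethers, motors and fusion factors. Exchange factors load GTP, and GTPase-activating proteins end the signal. In hippocampal neurons, Rab3 and Rab27 proteins act on synaptic vesicles and dense-core vesicles, Rab5 on early endosomes, Rab4 and Rab11 on the recycling of receptors to the surface, and Rab7 on transport to lysosomes.

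The Rab genes were taken by name from the rows that carry 1 gene symbol on the platform: the symbol had to be Rab, a number and at most 2 further characters. Of 20707 singly named genes, 57 protein-coding Rab genes met this rule. The Rab-binding proteins Rab3ip and Rab5if were left out. The noncoding opposite-strand transcripts Rab10os and Rab26os share the pattern of letters and are described apart. Rab26 and Rab39 lie only on rows with several gene symbols and were not analysed here. Of the 57 genes, 53 had a row above the filter on dim rows (a mean of 5.70 or more on the log2 scale) and entered the test among 15995 genes in all. Each gene is represented by its brightest row.

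The study compared the hippocampus of Malat1 knockout and wildtype mice, male C57BL/6 animals of 3 months, untreated, with 2 animals per genotype. Malat1 is an abundant long noncoding RNA of nuclear speckles. Knockout and wildtype animals were littermates, per the series' design text, which does not say which array pairs with which. The labels do not give which part of Malat1 was deleted, and they describe dissected hippocampus with no sort, although one field speaks of neurons. The samples are therefore read here as bulk tissue. Values are log2 array signals, and the signals of different rows cannot be ranked against each other, so all comparisons are within a gene.

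Malat1 itself stood at 8.53 and 8.70 in the knockout arrays and at 11.19 and 11.25 in the wildtype arrays. It was the only gene of the 15995 past the threshold (limma, log2 fold change -2.61, adjusted p = 0.00639). Without knockout replicate 1 or without knockout replicate 2 its adjusted p was 0.0992 or 0.0784, at changes of -2.52 and -2.70, in fits whose spread comes from the wildtype arrays alone. All 8 markers of hippocampal excitatory neurons had a tested row, as did 38 of 44 markers over all cell types. Of these markers 0 were called, as were 0.00625% of all genes. Because Malat1 was the only gene called, that count cannot show whether cell types differed. By the unadjusted limma p under 0.05, 1 interneuron marker and 1 choroid plexus marker passed, where 3.86% of all genes did. Knockout replicate 2 stood farthest from the other arrays. Between arrays, a gene typically differed by 0.0762 to 0.0833 (the median over genes, without sign) where knockout replicate 2 was one of the pair, and by 0.0468 to 0.0572 where it was not.

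None of the 53 Rab genes passed the adjusted threshold of 0.05 (limma, Benjamini-Hochberg over 15995 genes), where 0.00625% of all genes did. The adjusted p was 1 for every one of them, and 1 gene, Rab33b, had an unadjusted p under 0.05, against 3.86% of all genes. Rab33b was lower in the knockout, as were 1.98% of all genes at that threshold, while 0 Rab genes and 1.88% of all genes were higher. The changes were small: they ran from -0.20 to 0.15 on the log2 scale, with 25 above 0 and 28 below, and a median of -0.01 beside -0.00 over all genes. Without regard to sign, the median change was 0.0355 among the Rab genes and 0.0453 among all genes. For 53 of the 53 the 95% interval lay within a 1.5-fold change in either direction (95.9% of all genes), and for 48 of the 53 it lay within 1.25-fold (82.4% of all genes). The exceptions at 1.25-fold were Rab33b, Rab5a, Rab5b and Rab3b, whose intervals reached below it, and Rab44, whose interval reached above. Both knockout arrays lay below both wildtype arrays for 7 Rab genes (14.3% of all genes) and above them for 4 (14.7% of all genes). With 1 array left out, one genotype has a single array, which is then assumed to vary like the arrays of the other genotype. The number of Rab genes with an unadjusted p under 0.05 was then 3 without knockout replicate 1 (Rab33b, Rab3b and Rab5a), where 9.97% of all genes passed, and 1 without knockout replicate 2 (3.92% of all genes). It was 0 without wildtype replicate 1 (2.88%) and 2 without wildtype replicate 2 (4.76%).

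**Figure D1:**
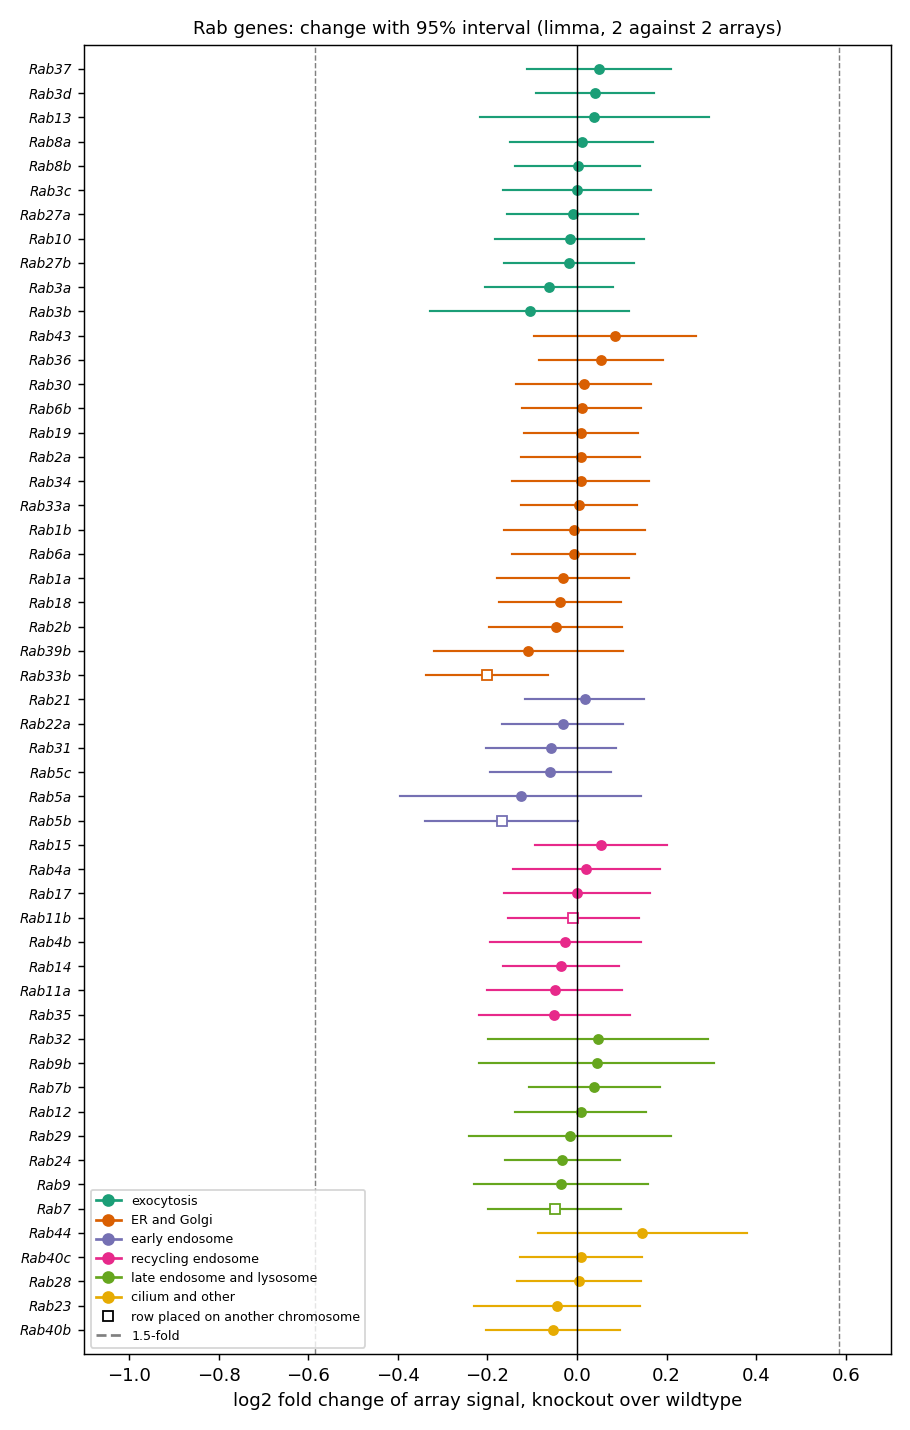
Log2 fold change of array signal, knockout over wildtype, for the 53 Rab genes, grouped by the step of traffic they serve; points are limma estimates from 2 knockout and 2 wildtype arrays, bars their 95% intervals, dashed lines a 1.5-fold change, and open squares the genes whose brightest row was placed on another chromosome. All intervals stay inside the dashed lines, and the bars of Rab33b alone lie clear of 0.

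Rab33b, a Golgi GTPase that binds the autophagy factor Atg16l1, had the largest difference. Its log2 signal was 11.34 and 11.29 in knockout arrays and 11.50 and 11.53 in wildtype arrays, so the groups did not overlap. The log2 fold change was -0.20 (95% interval -0.34 to -0.06, unadjusted p = 0.0130, adjusted p = 1 by limma), or 1.15-fold lower in the knockout. Rab5b, one of the Rab5 proteins that drive fusion of early endosomes, came next. Its signal was 11.05 and 11.03 in knockout arrays and 11.28 and 11.14 in wildtype arrays, again without overlap, at a log2 fold change of -0.17 (-0.34 to 0.00, adjusted p = 1).

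These values turn on the row chosen. Row numbers on this platform run along the chromosomes. Of all singly named rows, 83.7% lie among rows of genes that neighbour their own gene on the same chromosome in the RefSeq table. These rows also showed no conflict of strand, where strand could be read. The files give no position for a row, so this placement is read from its neighbours: the 10 nearest named rows on each side. The brightest row of Rab33b lies among rows of X-chromosome genes (17 of its 20 neighbours), while the Rab33b gene is on chromosome 3. A second Rab33b row lies among its chromosome 3 neighbours. That row stood at 6.92 and 6.98 in knockout arrays and 6.87 and 7.03 in wildtype arrays, groups that overlap, with a log2 fold change of -0.00 (-0.18 to 0.18, adjusted p = 1 in a limma fit on rows at the gene's own place).

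The same holds for Rab5b, whose brightest row lies among rows of chromosome 2 genes, whereas the gene is on chromosome 10. The Rab5b row on chromosome 10 had 6.80 and 6.67 in knockout arrays and 6.74 and 6.77 in wildtype arrays, a log2 fold change of -0.02 (-0.18 to 0.13, adjusted p = 1). The groups overlapped there. A further Rab5b row on chromosome 2 stood at 6.72 in each knockout array and 6.79 in each wildtype array.

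Rab7 and Rab11b also have their brightest row elsewhere. The brightest Rab7 row lies among chromosome 9 rows, where the RefSeq table lists the pseudogene Rab7-ps1, while Rab7 is on chromosome 6. It gave 11.87 and 11.79 in knockout arrays and 11.85 and 11.90 in wildtype arrays (log2 fold change -0.05). The Rab7 row at the gene's own place gave 8.89 and 8.85 in knockout arrays and 8.84 and 8.88 in wildtype arrays (0.01). The brightest Rab11b row lies among chromosome 19 rows, near the listed pseudogene Rab11b-ps2, and a second one among chromosome 1 rows, near Rab11b-ps1, whereas the gene is on chromosome 17. The Rab11b row used gave 11.79 and 11.70 in knockout arrays and 11.76 and 11.75 in wildtype arrays (-0.01), and the brighter row at its own place 10.27 and 10.20 in knockout arrays against 10.24 and 10.26 in wildtype arrays (-0.01). The groups overlapped on each of these Rab7 and Rab11b rows. On the chromosome 1 row of Rab11b they did not: it gave 11.60 and 11.66 in knockout arrays and 11.72 and 11.67 in wildtype arrays (-0.07, -0.22 to 0.08 in a fit over rows). The files do not show which transcripts a row measures, and whether copies of a gene add to these signals was not tested.

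Over all genes tested, 558 of 15995, or 3.49%, had their brightest row on another chromosome. With every gene taken at its brightest row at its own place, a setting chosen after seeing the data, all 53 Rab genes could again be tested. Of these, 0 had an unadjusted limma p under 0.05 (3.65% of the 15226 genes in that fit) and 0 passed the adjusted threshold (0.00657%). The median change was -0.00, the range -0.13 to 0.15, and 51 intervals of 53 lay within 1.25-fold.

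**Figure D2:**
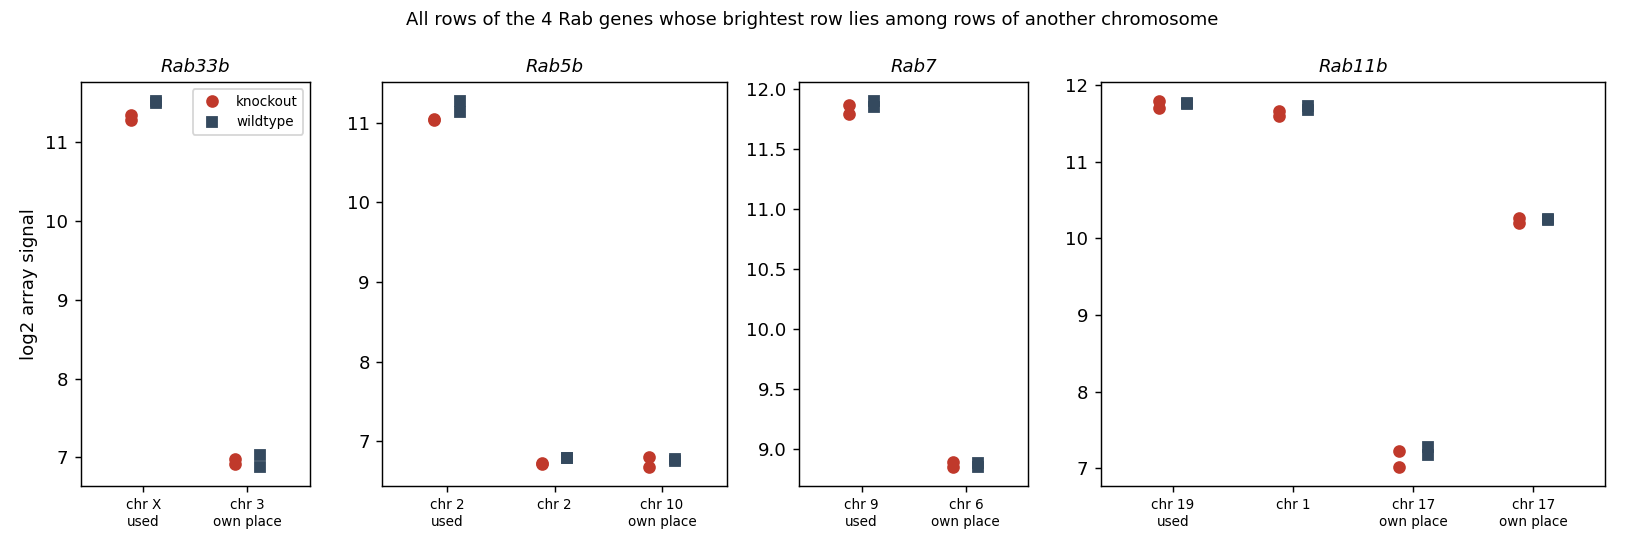
Log2 array signal of every row of Rab33b, Rab5b, Rab7 and Rab11b in the 2 knockout arrays (circles) and the 2 wildtype arrays (squares), by the chromosome of the neighbouring rows; "used" marks the brightest row and "own place" a row among the gene's own neighbours. Knockout and wildtype separate on the X-chromosome row of Rab33b, on both chromosome 2 rows of Rab5b, and on the chromosome 1 row of Rab11b, and overlap on the other rows of Rab33b, Rab5b, Rab7 and Rab11b; the vertical scales differ and levels of different rows are not comparable.

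Promoters are given here for the 3 Rab genes with the largest decreases on the rows used. For Rab33b and Rab5b they lie at the gene's own place, where the changes were -0.00 and -0.02, and not at the brightest rows that gave the decreases. They are the 250 bases before the start, from RefSeq on GRCm38.p6, at chr3:51483716-51483965 (plus strand) for Rab33b, chr10:128696269-128696518 (minus strand) for Rab5b and chr17:53478984-53479233 (plus strand) for Rab5a. Capitals mark the GC box CCGCCC, the cyclic AMP response element TGACGTCA and the core TCACGTGA of the CLEAR element, which marks lysosomal genes, on either strand.
Rab33b: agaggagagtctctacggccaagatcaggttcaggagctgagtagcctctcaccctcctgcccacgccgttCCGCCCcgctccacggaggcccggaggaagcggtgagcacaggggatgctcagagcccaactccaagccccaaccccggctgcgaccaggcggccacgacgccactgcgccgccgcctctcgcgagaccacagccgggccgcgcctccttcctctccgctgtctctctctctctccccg
Rab5b: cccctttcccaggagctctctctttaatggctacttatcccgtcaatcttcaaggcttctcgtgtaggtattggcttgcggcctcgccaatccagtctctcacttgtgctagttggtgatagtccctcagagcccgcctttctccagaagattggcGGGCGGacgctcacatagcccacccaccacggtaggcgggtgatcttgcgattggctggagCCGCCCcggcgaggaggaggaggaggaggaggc
Rab5a: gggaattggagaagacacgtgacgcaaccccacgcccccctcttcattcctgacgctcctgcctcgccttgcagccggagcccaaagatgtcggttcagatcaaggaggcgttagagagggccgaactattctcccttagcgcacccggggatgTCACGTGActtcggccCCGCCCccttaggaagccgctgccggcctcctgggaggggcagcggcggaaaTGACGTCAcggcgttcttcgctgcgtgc

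Promoter windows were found for 47 of the 57 Rab genes, matched by gene ID. Their median GC content was 60.4%, from 31.6% for Rab39b to 80.8% for Rab6b, beside 55.2% over 17492 protein-coding genes. The GC box was in 74.5% of the Rab windows, 35.4% of all 27025 genes with a window and 45.8% of the protein-coding ones. The CCAAT box was in 48.9% of the Rab genes, 37.5% of all genes and 39.5% of the protein-coding ones. For the TATA box TATAAA these shares were 8.51%, 14.3% and 13.7%. The cyclic AMP response element was found in Rab5a and Rab25 (1.77% of all genes and 2.2% of the protein-coding ones). The CLEAR core was found in Rab5a and Rab21 (0.907% of all genes and 1.15% of the protein-coding ones). All motifs were searched on both strands, no motif contains another, and the counts describe letters and not binding sites.

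Among the Rab genes of exocytosis and regulated secretion, 11 of 11 were tested, 6 lay above 0 and 5 below, and the median change was 0.00. Rab3a, the main Rab of synaptic vesicles, had 9.80 and 9.73 in knockout arrays and 9.80 and 9.85 in wildtype arrays. Both knockout arrays lay below both wildtype arrays, and the log2 fold change was -0.06 (95% interval -0.20 to 0.08). Rab3b, a second vesicle Rab, had 6.88 and 6.66 in knockout arrays and 6.90 and 6.84 in wildtype arrays (-0.11, -0.33 to 0.12). Knockout replicate 2 was low by itself: the Rab3b change was 0.00 with it left out and -0.21 with knockout replicate 1 left out.

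Rab3c, also found on synaptic vesicles, had 10.75 and 10.65 in knockout arrays and 10.74 and 10.66 in wildtype arrays, a change of 0.00 (-0.17 to 0.17). The replicates of each genotype differed by more than the genotypes did. Its 3 dimmer rows stood at 0.01, 0.04 and -0.03. Rab3d, known for the granules of gland cells, had 7.16 and 7.12 in knockout arrays and 7.10 in each wildtype array (0.04, -0.09 to 0.17). The groups did not overlap for Rab3d, and its interval included 0.

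Rab27a and Rab27b, which serve the docking of secretory granules and lysosome-related organelles, overlapped between genotypes. Rab27a had 6.67 and 6.60 in knockout arrays and 6.62 and 6.68 in wildtype arrays (-0.01), and a dimmer row stood at 0.02. Rab27b had 6.34 and 6.26 in knockout arrays and 6.34 and 6.29 in wildtype arrays (-0.02). Rab8a and Rab10 carry cargo from the Golgi to the plasma membrane, and Rab10 also takes part in axon growth. Rab8a had 8.28 and 8.16 in knockout arrays against 8.20 and 8.22 in wildtype arrays (0.01, -0.15 to 0.17). Rab10 had 7.61 and 7.49 in knockout arrays against 7.54 and 7.60 in wildtype arrays (-0.02, -0.18 to 0.15). For both the knockout arrays enclosed the wildtype arrays. A dimmer Rab10 row had 6.82 and 6.64 in knockout arrays and 6.89 and 7.06 in wildtype arrays, without overlap (-0.24, -0.50 to 0.01, unadjusted p = 0.0593 in a limma fit over rows). Rab37, a Rab of mast cell granules, had 6.46 and 6.58 in knockout arrays and 6.47 and 6.48 in wildtype arrays (0.05). Rab8b (0.00) and Rab13 (0.04), a Rab of tight junctions, complete the group, and the wildtype arrays of Rab13 differed by more (6.12 and 6.37) than the genotypes.

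In the group of the endoplasmic reticulum and Golgi, 15 of 15 genes were tested, 8 above 0 and 7 below, with a median of 0.00. Rab1a, which acts between the endoplasmic reticulum and the Golgi, had 7.95 and 7.86 in knockout arrays and 7.94 and 7.93 in wildtype arrays (-0.03, -0.18 to 0.12). Of its 3 dimmer rows, 2 were higher in both knockout arrays. The first had 6.40 and 6.71 in knockout arrays and 5.84 and 6.15 in wildtype arrays, a change of 0.56 (0.14 to 0.98, unadjusted p = 0.0196, adjusted p over rows = 1). The second had 6.07 and 6.13 in knockout arrays and 5.68 and 5.96 in wildtype arrays (0.28), and the third stood at -0.10 with overlapping groups. These 4 Rab1a rows thus point in different directions, and the mean over rows gave Rab1a a change of 0.18. In the fit over all 20317 named rows above the filter, 2 of 71 Rab rows had an unadjusted p under 0.05 (4.02% of all rows), that of Rab1a and the X-chromosome row of Rab33b, and 0 passed the adjusted threshold (0.00492% of all rows).

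Rab1b, the close relative of Rab1a, is on chromosome 19 like Malat1, with 35 protein-coding genes between them in the RefSeq order. It had 8.23 and 8.24 in knockout arrays and 8.18 and 8.30 in wildtype arrays, so the knockout values lay between the wildtype values (-0.01, -0.16 to 0.15). Rab39b, which is mutated in an inherited human intellectual disability, had 8.95 and 8.77 in knockout arrays and 8.91 and 9.02 in wildtype arrays. Its change was -0.11 (-0.32 to 0.10), -0.20 with knockout replicate 1 left out and -0.02 with knockout replicate 2 left out. Rab43, a Golgi Rab, had 6.60 and 6.61 in knockout arrays and 6.44 and 6.60 in wildtype arrays. The groups did not overlap, but wildtype replicate 1 was low by itself, and the Rab43 change of 0.08 (-0.10 to 0.27) was 0.01 without it. Rab36 had 7.48 and 7.41 in knockout arrays and 7.38 and 7.40 in wildtype arrays, again without overlap (0.05, -0.09 to 0.19).

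The other members of the group stayed close to 0. Rab6a and its neuron-enriched relative Rab6b, which act in transport within and from the Golgi, stood at -0.01 and 0.01. Rab2a and Rab2b, at the same border of endoplasmic reticulum and Golgi as Rab1, stood at 0.01 and -0.05, with the knockout arrays of Rab2b both below its wildtype arrays. Rab18, a Rab of the endoplasmic reticulum and lipid droplets, stood at -0.04, and Rab33a, Rab34, Rab30 and Rab19 lay between 0.00 and 0.02. The Rab19 row, without overlap, lay just at the filter level of 5.70, and 2 dim Rab2b rows and 1 dim Rab34 row lay on the strand opposite to the gene.

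The early endosome group had the largest share of its members on 1 side, though it is small. Of 6 tested genes, 5 lay below 0 (50.8% of all genes did), and the median was -0.06. With rows at the gene's own place Rab5b moved to -0.02 and remained below 0. Rab5a, the best studied Rab of early endosomes, had 7.95 and 7.70 in knockout arrays and 8.02 and 7.88 in wildtype arrays. These overlap, and the Rab5a change of -0.13 (-0.39 to 0.14) was -0.25 with knockout replicate 1 left out and 0.00 with knockout replicate 2 left out. A dim Rab5a row on the opposite strand, below the filter, stood at -0.35. Rab5c had 7.10 and 7.04 in knockout arrays and 7.12 and 7.13 in wildtype arrays, without overlap (-0.06, -0.19 to 0.08). Rab31 and Rab22a, which connect early endosomes with the trans-Golgi network, stood at -0.06 and -0.03. Rab21, a Rab of integrin uptake, stood at 0.02. In 5 of the 6 genes knockout replicate 2 had the lowest value of the 4 arrays, as in 64.2% of the Rab genes and 36.6% of all genes. Of the 6 genes, 0 had an unadjusted limma p under 0.05 (3.86% of all genes). In bulk tissue, fewer cells of a type and less RNA per cell cannot be told apart.

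In the recycling endosome group 8 of 9 genes were tested, 3 above 0 and 5 below, with a median of -0.02. Rab4a, a Rab of fast recycling, had 6.34 and 6.22 in knockout arrays and 6.25 and 6.27 in wildtype arrays (0.02), and Rab4b had 7.23 and 7.13 in knockout arrays against 7.25 and 7.16 in wildtype arrays (-0.03). Rab11a, the Rab of recycling endosomes that carries glutamate receptors into dendritic spines, had 6.91 and 6.82 in knockout arrays and 6.90 and 6.93 in wildtype arrays. The groups overlapped, with a change of -0.05 (-0.20 to 0.10). Rab15, a Rab enriched in neurons, had 7.40 and 7.34 in knockout arrays and 7.28 and 7.35 in wildtype arrays (0.05, -0.09 to 0.20). Rab35 (-0.05), Rab14 (-0.04) and Rab17 (0.00) complete this group. Rab14 was without overlap, at 6.62 and 6.60 in knockout arrays and 6.66 and 6.63 in wildtype arrays.

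Of the genes of late endosomes, lysosomes and autophagy 8 of 9 were tested, 4 on each side of 0, with a median of -0.00. Besides Rab7, described above, Rab9, which returns cargo from late endosomes to the Golgi, stood at -0.04, and its relative Rab9b at 0.04. Rab24, a Rab of autophagy, had 7.61 in each knockout array and 7.63 and 7.66 in wildtype arrays, without overlap (-0.03, -0.16 to 0.10). Rab29, which recruits the kinase Lrrk2, had 6.35 and 6.12 in knockout arrays and 6.23 and 6.28 in wildtype arrays (-0.02), so its spread was larger between the knockout arrays than between genotypes. Rab32, a Rab of melanosomes and mitochondria, stood at 0.05, Rab7b at 0.04 and Rab12 at 0.01. A dimmer Rab32 row was at 0.14, with 6.08 and 6.23 in knockout arrays and 6.00 and 6.03 in wildtype arrays. A dimmer Rab12 row gave -0.24, with 6.82 and 6.29 in knockout arrays and 6.82 and 6.78 in wildtype arrays, so knockout replicate 2 alone was low.

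Rab44, a large Rab known from immune cells, had the largest increase, with 6.42 and 6.52 in knockout arrays and 6.21 and 6.43 in wildtype arrays. The groups overlapped, and the Rab44 change of 0.15 (-0.09 to 0.38) was 0.04 without wildtype replicate 1. Rab23, which restrains Hedgehog signalling at the cilium, stood at -0.05, Rab40b and Rab40c, which join ubiquitin ligases, at -0.05 and 0.01, and Rab28 at 0.00. The untested Rab20, Rab25, Rab38 and Rab42 had all their rows below the filter level. For Rab42 the brightest row gave 5.19 and 5.13 in knockout arrays and 5.62 and 5.50 in wildtype arrays, without overlap. Its change was -0.40 (-0.57 to -0.24, unadjusted p = 0.00174, adjusted p = 1) in the limma fit without a filter. There 4.04% of all genes had an unadjusted p under 0.05. The other Rab42 rows gave -0.16 and 0.11. In the same fit Rab20 stood at 0.12, Rab25 at 0.01 and Rab38 at -0.01. Of the opposite-strand transcripts, Rab26os had 6.32 and 6.13 in knockout arrays and 5.98 and 6.09 in wildtype arrays (0.19, -0.03 to 0.41), and Rab10os stood at -0.03.

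Knockout replicate 2 was the lowest of the 4 arrays for 34 of the 53 Rab genes, or 64.2%, against 36.6% of all genes tested. Knockout replicate 1 was the highest for 22, or 41.5%, against 25.2% of all genes. The knockout arrays thus lay on opposite sides: the median deviation from the mean of each gene was 0.03 and -0.04 in knockout replicates 1 and 2, and -0.00 and 0.02 in wildtype replicates 1 and 2. Over all genes it was 0.01 and -0.01 in the knockout arrays and -0.01 and 0.01 in the wildtype arrays. With knockout replicate 1 left out the median Rab change was -0.04, and with knockout replicate 2 left out it was 0.02. The summed linear signals of 9 lists of cell type markers had no common lowest array: knockout replicates 1 and 2 were lowest for 3 lists each, wildtype replicate 1 for 1 and wildtype replicate 2 for 2. Excitatory neuron markers summed to 6396 and 6198 in knockout replicates 1 and 2, and 6246 and 6325 in wildtype replicates 1 and 2. Interneuron markers summed to 2344 and 2378 in the knockout replicates, and 2525 and 2555 in the wildtype replicates. Both knockout sums thus lay below both wildtype sums. Such a sum follows its brightest markers. The median log2 fold change of the 6 interneuron markers was -0.00, and 1 of the 6 had an unadjusted limma p under 0.05 (3.86% of all genes). Whether the makeup of the tissue or the quality of the array plays a part in this was not tested.

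**Figure D3:**
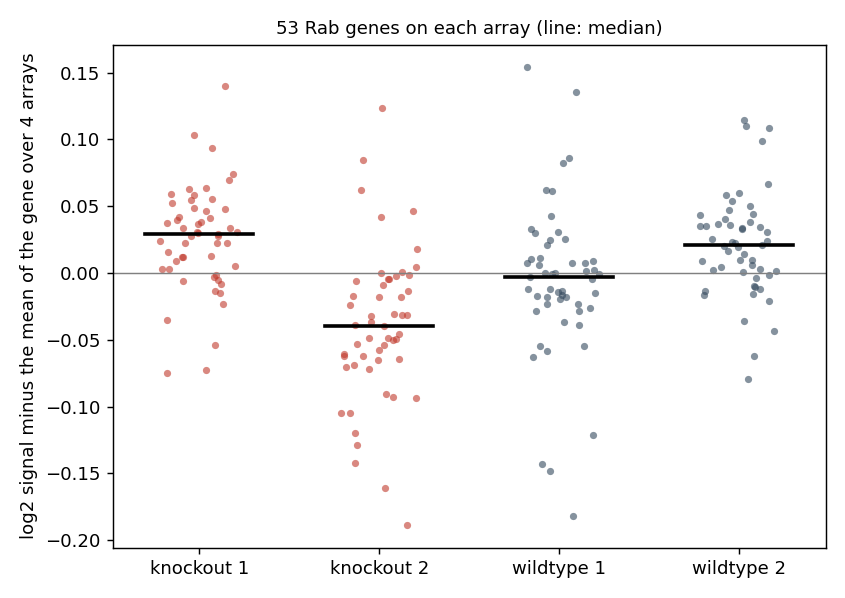
Log2 signal of each of the 53 Rab genes minus its mean over the 4 arrays, by array; points are genes, coloured by genotype, and lines are medians over genes. Most points of knockout replicate 2 lie below 0 (median -0.04) and most of knockout replicate 1 above it (median 0.03), with the wildtype arrays between.

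The genes that act on Rab proteins were read from lists of 8 chaperones and prenylation genes, 32 exchange factors, 37 GTPase-activating proteins and 44 effectors. Of these 7, 28, 36 and 40 were tested, and 0 passed the adjusted threshold in either direction. By the unadjusted limma p under 0.05, 3 GTPase-activating proteins passed, all lower in the knockout (1.98% of all genes), and 0 genes of each other list. The medians were 0.02, -0.01, -0.01 and -0.00, beside -0.00 over all genes. Above and below 0 lay 4 and 3 of the chaperones and prenylation genes, 12 and 16 exchange factors, 16 and 20 GTPase-activating proteins, and 19 and 21 effectors.

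Among the GTPase-activating proteins, Tbc1d2, which acts on Rab7, had 6.64 and 6.65 in knockout arrays and 6.94 and 7.09 in wildtype arrays (-0.37, 95% interval -0.54 to -0.20, adjusted p = 1). Evi5, which acts on Rab11 in human cells, had 8.10 and 7.90 in knockout arrays and 8.36 and 8.23 in wildtype arrays (-0.29, -0.52 to -0.06, adjusted p = 1). For neither gene did the groups overlap, and these rows too lie among rows of another chromosome, X for Tbc1d2 and 18 for Evi5. At the gene's own place, on chromosome 4, Tbc1d2 stood at 6.37 and 6.49 in knockout arrays and 6.33 and 6.31 in wildtype arrays, a change of the opposite sign (0.11, -0.04 to 0.27). Evi5 at its own place, on chromosome 5, stood at -0.08 (-0.24 to 0.07). Tbc1d7, a part of the TSC complex that restrains mTORC1, lies at its own place and had 7.09 and 7.04 in knockout arrays and 7.22 and 7.26 in wildtype arrays (-0.18, -0.31 to -0.04, adjusted p = 1). With rows at the gene's own place, 1 of 35 GTPase-activating proteins, Tbc1d7, had an unadjusted limma p under 0.05 (3.65% of all genes in that fit) and 0 passed the adjusted threshold (0.00657%). Tbc1d24, which is mutated in human epilepsies, stood at 0.08.

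In the list of chaperones and prenylation genes, the farthest were Gdi2, which extracts Rab proteins from membranes, at 8.72 and 8.46 in knockout arrays and 8.46 and 8.47 in wildtype arrays (0.12, -0.13 to 0.38), and Rabif (0.08). Knockout replicate 1 alone was high for Gdi2. The Rab escort gene Chml stood at 0.06 and Rabggtb, a subunit of the enzyme that attaches the lipid anchor, at -0.03. The exchange factors farthest from 0 were Dennd4a (-0.12, on a row of the opposite strand), Dennd5b and Ric1 (both -0.07) and Hps4 (0.07), which activates Rab32 and Rab38 with Hps1. Of the effectors, Sytl5, which binds Rab27, had 5.86 in each knockout array and 6.05 and 5.93 in wildtype arrays, without overlap (-0.13, -0.29 to 0.03). Mical1, an actin-oxidising effector, stood at 0.10, the Rab kinase Lrrk2 at -0.10, and the Rab5 tether Eea1 at -0.07.

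**Figure D4:**
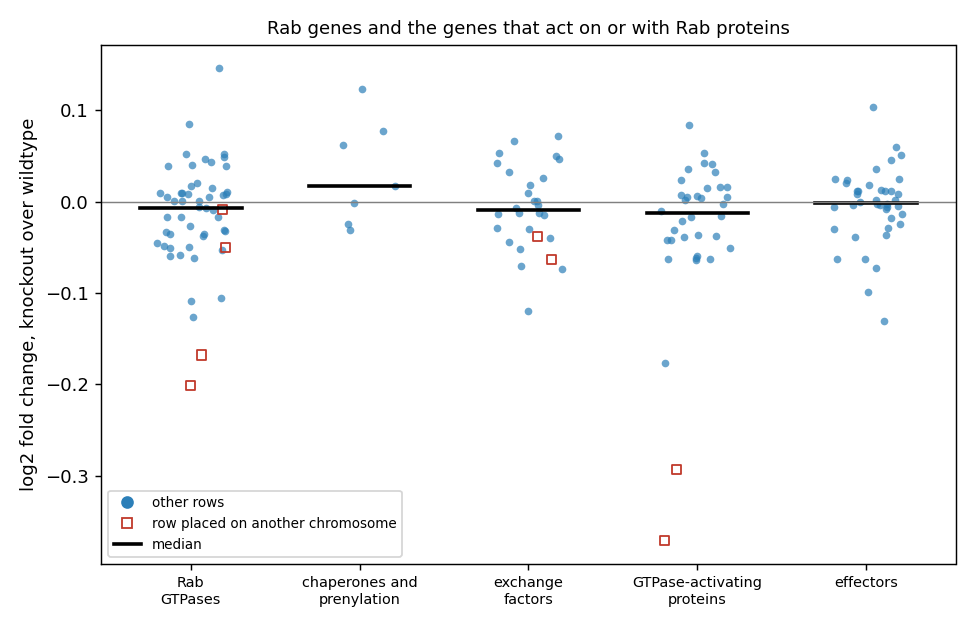
Log2 fold change, knockout over wildtype, of the 53 Rab genes and of 4 lists of genes that act on or with Rab proteins; points are genes, black lines medians, and open red squares genes whose brightest row was placed on another chromosome. Medians lie between -0.01 and 0.02, and the lowest points of the first column (Rab33b, Rab5b) and of the GTPase-activating proteins (Tbc1d2, Evi5) are open squares.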

How the data were processed

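Hippocampal RNA of 4 mice was hybridised to Affymetrix mouse exon arrays. The authors deposited 1 log2 expression value per row and array for 265511 rows, as their range shows, with a normalization method not given in the sources used here. Build mm9 is named in the submitters' processing notes. Biotin-labelled RNA was made from 100 ng of total RNA, per the labels' protocols, which do not state how strand was handled. Values were used as deposited. Rows with 1 symbol in GEO's platform annotation (27090 rows) were kept if their mean over the 4 arrays reached the 25th percentile of such rows, and each gene took its brightest row. Knockout and wildtype were compared with limma 3.58.1 in R 4.3.3 (lmFit, eBayes, genotype as the only term, two-sided), with Benjamini-Hochberg adjustment over 15995 genes. The fit was also run on simulated data with changes larger than those of the tested Rab genes. That run does not show how well changes as small as theirs would be found. With 2 arrays per group, their number limits the precision. The p-values and intervals rest on the spread between these animals, with each gene's variance drawn towards that of all genes. The fit had 2 residual and 2.98 prior degrees of freedom, so the shared part weighed more than the gene's own.

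A row was placed by the 10 nearest named rows on each side, at least 60% of which had to share a chromosome. The gene had to start within 2 Mb of the span of their starts, trimmed at both ends, on the RefSeq table of GRCm38.p6. Where 80% of these neighbours shared a strand, a gene on the other strand did not count as at its own place. Where they did not, strand was left out. No mm9 coordinates were used. Alternatives were the replicate number as a block, quantile normalization, median centring, other filters, an intensity trend, the mean over a gene's rows, each array left out, rows at the gene's own place and every row on its own.

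The members and lists were chosen with earlier results of these data known. Per-array values are given for Rab33b, the 5 largest changes per direction, well-known Rab genes and genes whose rows disagree; further genes whose groups did not overlap, and a few with a wide spread, were named after their values were seen. In the lists of regulators the 4 largest absolute changes are named.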

Additional observations from a re-analysis of the deposited data

How the results depend on the processing

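Rab genes past the adjusted threshold numbered 0 under every one of the 13 alternatives run (smallest adjusted p 0.498, without knockout replicate 1), 2 of which (rows at the gene's own place, and every row on its own) were chosen after seeing the data. Those with an unadjusted limma p under 0.05 numbered 1 in the reported fit. They numbered 0 with quantile normalization (3.88% of all genes), the mean over rows (3.88%) or own-place rows (3.65%), and 2 with arrays centred on their median (3.84%), no filter (4.04%), the filter at the 50th percentile (3.72%) or every row on its own (4.02% of rows). With 1 array left out, where the spread of the lone array's genotype is taken from the other, they numbered 0 to 3 (2.88% to 9.97% of all genes). The cause was not tested. The replicate number as a block left 1 gene called over all genes (Malat1, adjusted p = 0.00392), 0 Rab genes called and 1 Rab gene with an unadjusted p under 0.05 (5.23% of all genes). Same-numbered arrays deviated together only weakly (correlation 0.06 across genes), so the numbers were not taken as pairs. With 1 array left out the genes called over all genes numbered 0 to 1, the Malat1 change ran from -2.70 to -2.52, and the median Rab change from -0.0425 to 0.0169 (its lowest without knockout replicate 1), while 33 of 53 Rab genes changed sign. Over all alternatives that gave a value, 18 of 53 Rab genes kept 1 sign.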

Other observations

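Genes whose brightest row lies among rows of another chromosome were counted over the whole table. They made up 44 of the 316 genes with an unadjusted limma p under 0.05 and lower signal in the knockout (13.9%), 12 of the 301 such genes with higher signal (3.99%), and 3.49% of all 15995 genes. The genes were chosen by the contrast described, so these shares are a description and were not tested.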
